A study of Homo sapiens with 6 samples.

Results

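The 46 genes described here encode the proteins that mark, license and fire DNA replication origins and that copy DNA at the fork. They were taken by name from a fixed list, 1 row per name, out of 50868 genes in the deposited table. All 46 passed the filter on low values, a mean count of at least 10, and were tested. The RNA came from HEK-293T, a transformed human embryonic kidney line whose genotype is given as WT. One group of 3 libraries was made from cells in medium with DMSO, the solvent, and the other group of 3 from cells given 10 µM nitidine chloride (NC), a benzophenanthridine alkaloid, and both were collected at 12 h. The labels do not say whether the 3 libraries of a group came from separate cultures, so p-values measure the spread between these libraries, which may be technical. In bulk RNA of a growing culture, fewer cells in one phase of the cycle and less RNA per cell cannot be told apart.

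Replication starts where the origin recognition complex (ORC) sits on DNA. In G1, ORC and CDC6, with CDT1 as the carrier, load the MCM2-7 helicase ring around DNA, and geminin (GMNN) blocks CDT1 once S phase has begun. MCM10, CDC45 and the GINS complex turn the loaded ring into an active helicase, polymerase alpha-primase makes the RNA-DNA primers, and polymerases epsilon and delta extend them with the PCNA clamp. Many of these genes are textbook targets of E2F transcription factors and are transcribed mainly around the entry into S phase.

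Of the 46 genes, 28 changed (edgeR's quasi-likelihood test, Benjamini-Hochberg adjusted p under 0.05 over the 15953 genes tested). NC raised 17 of them and lowered 11, and 18 did not pass. The share that changed was 60.9%, against 51.7% of all tested genes. Among the 46, 37% were higher and 23.9% lower, against 24.7% and 27% of all tested genes. These shares of all tested genes include low counts, whereas the lowest mean count of a member was 354.7. With a mean count of at least 50 required, 7525 of 12864 genes changed (3757 higher, 3768 lower), a larger share than the 8250 of 15953 here. The excess of the 46 in share changed was thus smaller there, and genes of similar count were not compared. The median log2 fold change (NC over DMSO) was 0.05 for the 46 and 0.01 for all tested genes. The list as a whole thus stood near the middle of the transcriptome, with members on both sides. All tested genes were spread as well, with quartiles of -0.46 and 0.37. Library values of the 2 groups did not overlap for 32 of the 46 (69.6%), against 60.7% of all tested genes, low counts included. The widest changes were 2 falls, of POLA1 and PRIM2. They were the only members past 2-fold with an adjusted p under 0.05, where 11.7% of all tested genes fell at least that far. The largest rise was that of ORC6, by 1.92-fold.

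The direction of small changes depended on the scaling. Levels below are CPM, the counts scaled to a common library size, after TMM scaling, under which the median tested gene moved by 0.01 on the log2 scale. With library totals alone that median was 0.12, and 21 members were higher and 9 lower, with MCM5, MCM7, GINS2 and RFC4 added to the higher ones. With TMM computed from genes spanning under 20 kb it was -0.22, and 8 members were higher and 22 lower, with ORC3, POLA2, PRIM1, POLD1, POLE, POLE2, RFC1, RPA3, LIG1, RRM2 and TYMS added to the lower ones. Under these 3 scalings the same 17 genes were called in the same direction. ORC1, ORC6, CDC6, CDT1, MCM2, GINS3, POLD2 and RFC5 were higher in each, and ORC2, ORC4, ORC5, MCM6, GINS1, POLA1, PRIM2, RPA1 and RRM1 were lower in each. The other 11 changes are given with the setting that ends the call.

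**Figure D1:**
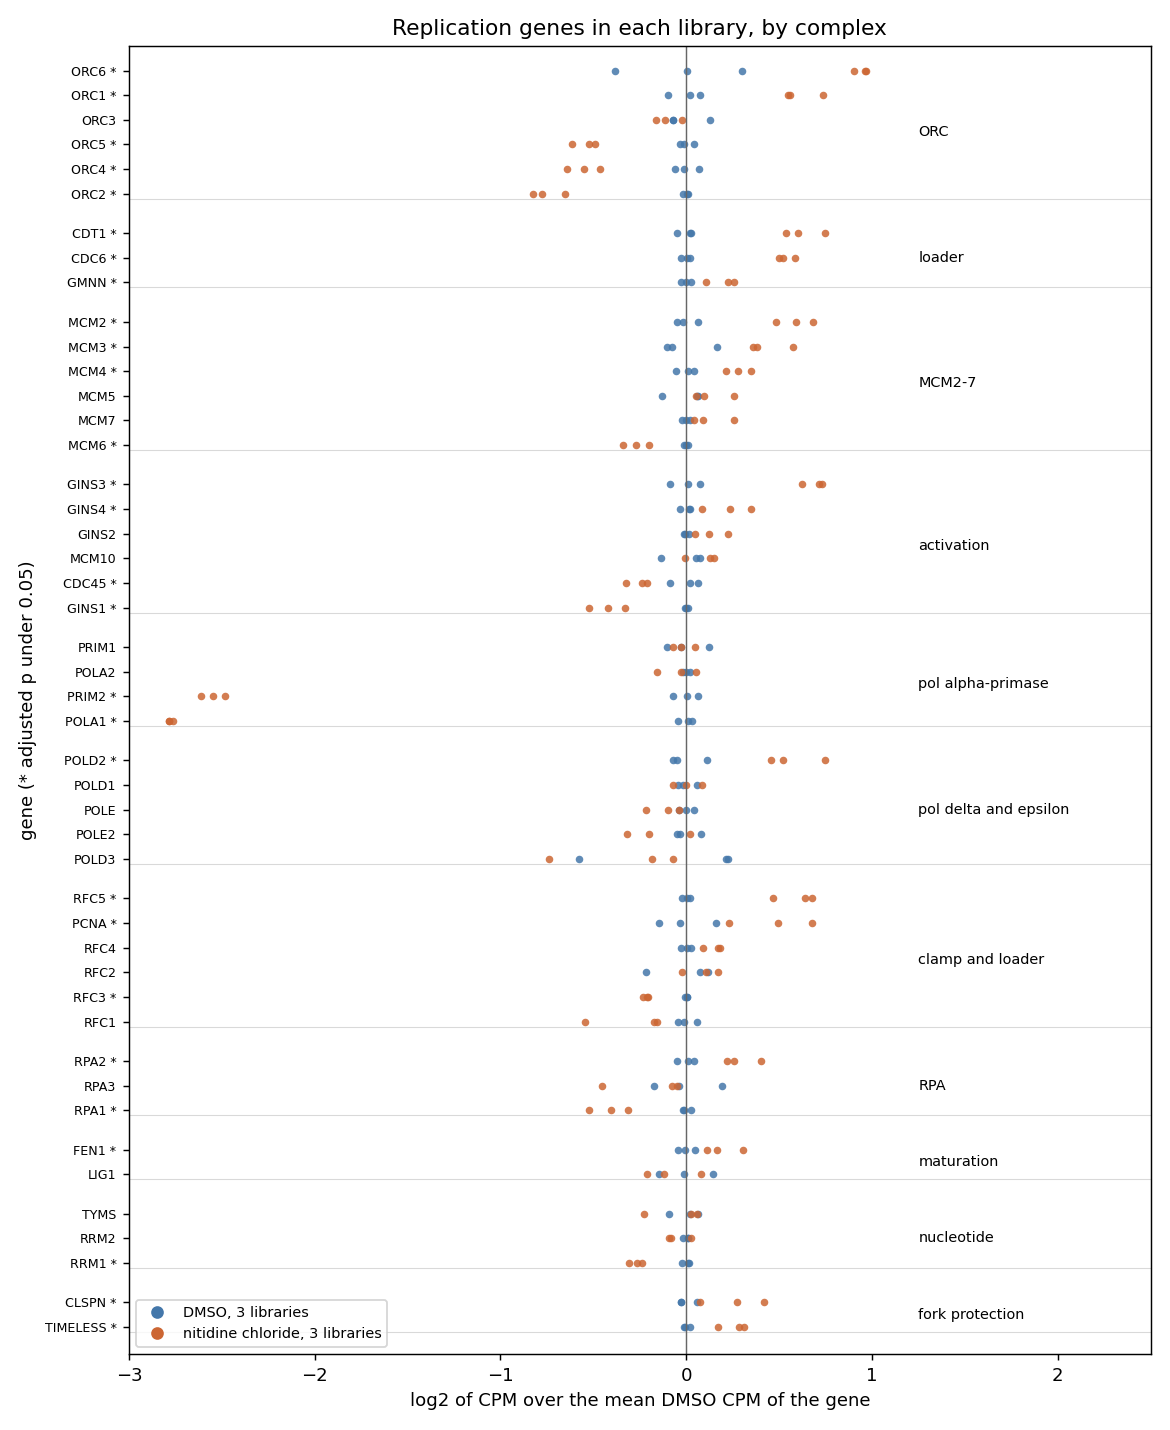
CPM of each gene in every library, on a log2 scale relative to the mean of its 3 DMSO libraries, with genes grouped by complex, blue points for DMSO and orange points for NC. An asterisk marks an adjusted p under 0.05. POLA1 and PRIM2 lie far below all other genes in the 3 NC libraries, while ORC6 is the gene farthest above.

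The DMSO libraries held 12688093 to 16357992 counts and the NC libraries 13273432 to 15620937. The 46 genes took 0.7456 to 0.7563% of counts in DMSO and 0.846 to 0.8938% in NC. All 8 genes listed as marks of the HEK-293T line were present, at a summed 1187 to 1478 CPM in DMSO and 1332 to 1605 CPM in NC. Of 13 markers of blood, endothelium, fibroblasts and liver, CD3E was at 0 in every library and 10 had a mean count under 10. Their sum was 35.3 to 39.8 CPM in DMSO and 57.1 to 63.8 CPM in NC, and 1 gene, the fibroblast collagen COL1A1, made up most of it (32.6 CPM in DMSO and 52.7 CPM in NC). Its part in the results below was not tested. Mitochondrial transcripts took 3.805 to 3.939% of counts in DMSO and 3.385 to 3.464% in NC.

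Promoter sequences were described by motifs present in some of the members, and binding to them was not tested. RefSeq windows on GRCh38.p14, from 250 bases before to 50 after a transcript start, were found for 40 of the 46. They were searched on both strands for 4 E2F-type motifs, TTTGGCGC, TTTCCCGC, TTTGCCGC and TTTCGCGC, some of which overlap each other on opposite strands. A match was present in 20 of the 40 (50%), against 3.99% of 27305 genes with a window and 6.55% of the 10990 tested genes with one. CCAAT, the NF-Y box, was present in 25 of the 40 (62.5%), against 39.7% and 43.3%. The windows below belong to the gene that rose most, ORC6, to both genes that fell most, POLA1 and PRIM2, to CDT1 as another gene that rose, and to MCM2 and MCM6 as helicase subunits that moved in opposite directions. They run from 250 bases before the start to 20 after it, 5′ to 3′ on the gene's strand, and capitals mark E2F-type matches.
ORC6, rose, chr16:46689409-46689678, plus strand: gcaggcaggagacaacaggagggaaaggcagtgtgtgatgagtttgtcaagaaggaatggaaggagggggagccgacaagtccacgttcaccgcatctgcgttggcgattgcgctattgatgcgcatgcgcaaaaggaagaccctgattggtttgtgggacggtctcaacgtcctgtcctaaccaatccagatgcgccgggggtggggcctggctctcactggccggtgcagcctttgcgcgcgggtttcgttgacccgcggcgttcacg
CDT1, rose, chr16:88803539-88803808, plus strand: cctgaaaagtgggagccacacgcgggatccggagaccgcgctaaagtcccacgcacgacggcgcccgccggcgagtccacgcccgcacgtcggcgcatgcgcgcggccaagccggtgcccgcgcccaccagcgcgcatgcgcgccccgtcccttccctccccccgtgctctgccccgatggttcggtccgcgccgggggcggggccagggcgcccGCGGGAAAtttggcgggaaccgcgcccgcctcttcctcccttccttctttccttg
MCM2, rose, chr3:127598161-127598430, plus strand: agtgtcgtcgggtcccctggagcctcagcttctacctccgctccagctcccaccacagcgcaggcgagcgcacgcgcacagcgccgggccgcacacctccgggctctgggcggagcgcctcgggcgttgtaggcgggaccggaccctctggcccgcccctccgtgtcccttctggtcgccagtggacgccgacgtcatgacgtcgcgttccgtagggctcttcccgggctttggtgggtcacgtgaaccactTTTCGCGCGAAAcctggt
MCM6, fell, chr2:135876424-135876693, minus strand: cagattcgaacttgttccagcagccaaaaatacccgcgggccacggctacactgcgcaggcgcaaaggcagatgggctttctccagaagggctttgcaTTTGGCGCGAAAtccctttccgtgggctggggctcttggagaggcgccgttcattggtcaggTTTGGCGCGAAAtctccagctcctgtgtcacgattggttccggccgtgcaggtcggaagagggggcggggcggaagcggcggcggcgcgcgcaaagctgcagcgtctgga
POLA1, fell, chrX:24693668-24693937, plus strand: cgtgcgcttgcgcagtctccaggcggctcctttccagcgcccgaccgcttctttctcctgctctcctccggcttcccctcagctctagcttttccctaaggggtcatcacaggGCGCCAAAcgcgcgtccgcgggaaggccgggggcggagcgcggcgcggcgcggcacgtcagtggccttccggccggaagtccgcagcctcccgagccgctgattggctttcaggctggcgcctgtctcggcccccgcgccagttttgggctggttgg
PRIM2, fell, chr6:57317380-57317649, plus strand: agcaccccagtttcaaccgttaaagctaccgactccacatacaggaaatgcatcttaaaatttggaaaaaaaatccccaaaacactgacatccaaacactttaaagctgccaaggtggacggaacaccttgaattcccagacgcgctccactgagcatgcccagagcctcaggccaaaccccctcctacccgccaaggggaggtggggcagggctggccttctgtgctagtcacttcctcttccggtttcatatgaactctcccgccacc

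With the first transcribed base as 0, the CDT1 match begins at -35 and the POLA1 match at -137, both on the minus strand. MCM2 has a pair of matches that overlap on opposite strands, beginning at 2 and 6. MCM6 has 2 such overlapping pairs, beginning at -152 and -148 and at -90 and -86. The windows of ORC6 and PRIM2 do not hold these letters. Matches were thus present in genes that fell (MCM6 and POLA1) as well as in genes that rose (CDT1 and MCM2). By call, 8 of 14 higher genes (57.1%), 4 of 11 lower genes (36.4%) and 8 of 15 genes that did not pass (53.3%) had an E2F-type match.

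The origin recognition complex split by subunit. ORC1 and ORC6 rose, ORC2, ORC4 and ORC5 fell, and ORC3 did not pass. ORC6 (chromosome 16, 46689643 to 46698394, plus strand), the smallest subunit, had 53.6, 86.1 and 70.3 CPM in DMSO and 136.8, 136.3 and 130.9 CPM in NC. Each NC library lay above the highest DMSO library, although the DMSO libraries themselves differed widely. The log2 fold change was 0.94 ± 0.15 (SE, adjusted p = 0.00141), and it ran from 0.78 to 1.12 as each library was left out. ORC1, the ATPase subunit whose level follows the cell cycle, rose from 73.6 ± 4.53 to 112.9 ± 8.56 CPM (mean ± SD, n = 3; log2 fold change 0.62 ± 0.08).

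ORC2 (chromosome 2, 200908973 to 200963680, minus strand), a core subunit, fell furthest of the 6. It had 96.6, 96.9 and 95.1 CPM in DMSO and 56.2, 54.3 and 61.2 CPM in NC. The groups were well apart, with a log2 fold change of -0.75 ± 0.07 (adjusted p = 6.23e-05). ORC4 fell by 0.55 ± 0.08 and ORC5 by 0.54 ± 0.08 on the log2 scale (adjusted p = 6.59e-04 and 6.46e-04). Both belong to the ATPase core around ORC1. ORC3, the partner of ORC2, had -0.10 ± 0.08 (adjusted p = 0.344).

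These shifts changed the order of the subunit transcripts. On the deposited FPKM scale, which is per length, ORC6 stood at 0.520, 0.832 and 0.693 of ORC2 in the DMSO libraries and at 2.28, 2.35 and 2.005 in the NC libraries. ORC1 was 1.38 to 1.56 times ORC2 in DMSO and 3.44 to 4.39 times in NC. On GENCODE exon lengths in place of the FPKM lengths, ORC6 over ORC2 was 0.751, 1.2 and 1 in DMSO and 3.3, 3.4 and 2.9 in NC, so which of both stood higher in DMSO depends on the length, whereas ORC6 stood above ORC2 in NC on either. In DMSO ORC1 had the highest level of the 6 (17.97 FPKM) and ORC4 the lowest (3.93 FPKM). In NC ORC1 (29.6 FPKM) and ORC4 (2.89 FPKM) kept those places. The length behind FPKM was 1.04 to 2.54 times the GENCODE exon length of these 46 genes, so the order between genes rests on it, whereas the move of a ratio between groups does not.

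**Figure D2:**
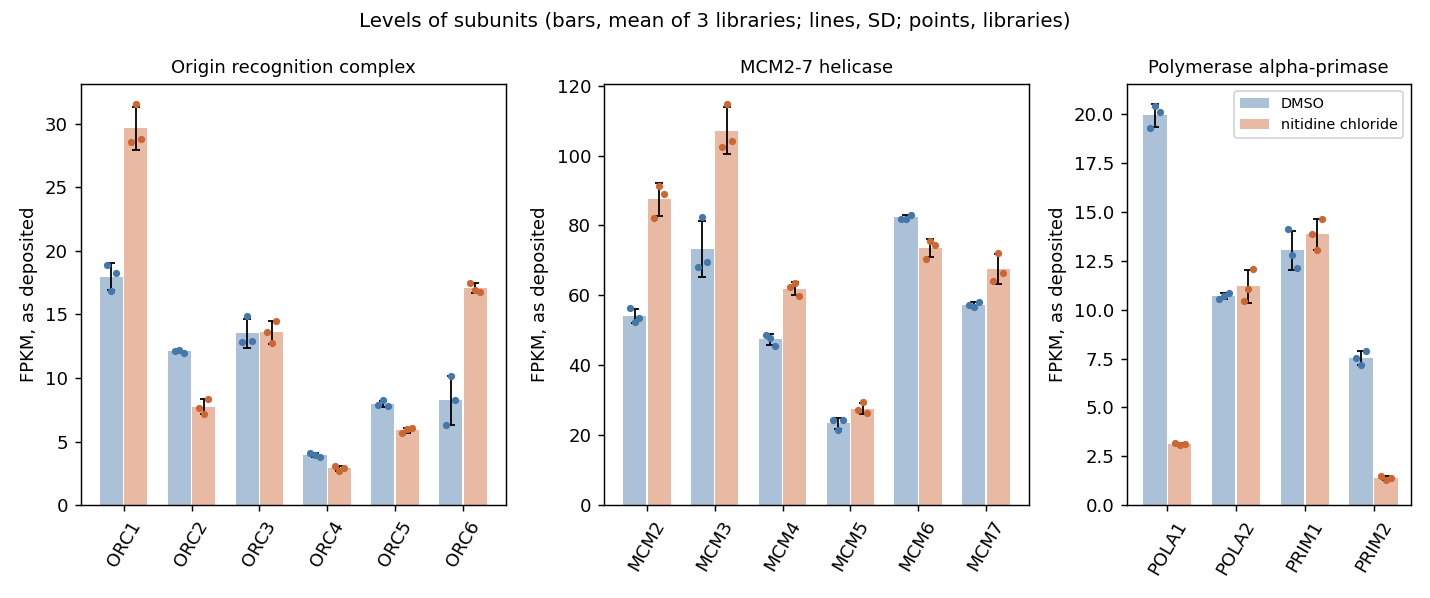
Deposited FPKM (vertical axes, linear from 0) of the subunits of ORC, MCM2-7 and polymerase alpha-primase. Bars are means of 3 libraries, blue for DMSO and orange for NC, lines are SD and points are single libraries. POLA1 drops from the highest of its 4 subunits in DMSO (19.95 FPKM) to 3.13 FPKM in NC, and ORC6 rises above ORC2, which it did not consistently exceed in DMSO (on GENCODE exon lengths their DMSO means were 15.65 and 15.87).

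All 3 licensing regulators rose, though GMNN turned to -0.04 with scaling on genes under 20 kb. CDT1 (chromosome 16, 88803213 to 88809258), the helicase carrier whose promoter match is shown above, had 155.7, 148.6 and 156.7 CPM in DMSO and 222.8, 258.1 and 233.2 CPM in NC. Every NC library exceeded every DMSO library by a wide margin, and the log2 fold change was 0.63 ± 0.07 (adjusted p = 2.16e-04). CDC6, the ATPase that closes the ORC ring, rose by 0.53 ± 0.05 (adjusted p = 1.33e-04). Geminin, the CDT1 inhibitor, had the smallest rise, from 106.8, 108.8 and 105.0 to 127.6, 115.2 and 124.8 CPM. Its groups did not overlap, and its log2 fold change was 0.20 ± 0.06 (adjusted p = 0.0303). That call was lost without any 1 of the DMSO libraries or without NC replicate 1 or 3 (adjusted p 0.00804 to 0.107 over the 6 libraries left out in turn). CDT1 was 1.47 to 1.60 times GMNN in FPKM in DMSO and 1.87 to 2.404 times in NC.

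Of the helicase ring, MCM2, MCM3 and MCM4 rose, MCM5 and MCM7 did not pass, and MCM6 fell. MCM2 (chromosome 3, 127598223 to 127622436) had 410.3, 379.2 and 387.1 CPM in DMSO and 547.7, 629.0 and 591.7 CPM in NC. The 3 NC libraries all stood above the DMSO libraries, with a log2 fold change of 0.59 ± 0.07 (adjusted p = 2.72e-04). MCM3 rose by 0.44 ± 0.09 and MCM4 by 0.28 ± 0.06 (adjusted p = 0.00538 and 0.00532), both uncalled with scaling on genes under 20 kb. MCM7 had 0.13 ± 0.07 and MCM5 0.14 ± 0.08 (adjusted p = 0.144 and 0.197), and both were -0.10 with that scaling.

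MCM6 (chromosome 2, 135839626 to 135876426, minus strand) had 378.2, 376.0 and 381.8 CPM in DMSO and 298.9, 329.9 and 314.5 CPM in NC. All 3 NC libraries lay below the narrow DMSO range, and the log2 fold change was -0.27 ± 0.06 (adjusted p = 0.00595). The ring holds 1 copy of each subunit. MCM6 over MCM2, in FPKM, was 1.45, 1.56 and 1.55 in DMSO and 0.859, 0.826 and 0.837 in NC. MCM6 had the highest FPKM of the 6 subunits in DMSO (82.3), and MCM3 had it in NC (107.1). On GENCODE exon lengths MCM7 was highest in DMSO (128.3, with MCM6 at 88.5), and MCM3 again in NC (158). The summed FPKM of the 6 subunits was 334.4 to 342.9 in DMSO and 408.4 to 446.8 in NC, on a scale set by library totals.

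Genes that activate the loaded helicase went both ways. GINS3 and GINS4 rose (GINS4 had -0.01 with scaling on genes under 20 kb), CDC45 and GINS1 fell, and MCM10 and GINS2 did not pass, although the 4 GINS proteins form 1 complex. GINS3 (chromosome 16, 58295080 to 58406144) had 54.5, 48.6 and 52.0 CPM in DMSO and 79.6, 85.8 and 84.8 CPM in NC. The groups were clearly apart, with a log2 fold change of 0.69 ± 0.07 (adjusted p = 1.30e-04). GINS1 (chromosome 20, 25407727 to 25452628) went the other way, from 129.6, 128.9 and 128.2 CPM to 96.2, 102.4 and 89.6 CPM. Its log2 fold change was -0.42 ± 0.07 (adjusted p = 0.00116).

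CDC45, the helicase cofactor that binds MCM2-7 together with GINS, fell from 96.5 ± 5.08 to 80.7 ± 3.35 CPM (n = 3). Its log2 fold change was -0.26 ± 0.07 (adjusted p = 0.0135). The call was lost without DMSO replicate 1 or 3 (adjusted p up to 0.0553, and 0.0164 at the lowest, as libraries were left out) and with library totals alone. GINS4 rose by 0.23 ± 0.08 (adjusted p = 0.0386), a call that held only without NC replicate 1 as libraries were left out (adjusted p 0.0108 to 0.121). GINS2 had 0.14 ± 0.06 and MCM10, an initiation factor that also binds polymerase alpha, had 0.09 ± 0.08.

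Polymerase alpha-primase held the largest changes of the 46 genes, in 1 subunit of the polymerase and 1 of the primase. POLA1 (chromosome X, 24693919 to 24996986, plus strand), the catalytic DNA polymerase subunit, had 162.9, 171.4 and 169.1 CPM in DMSO and 24.7, 24.4 and 24.3 CPM in NC. The NC libraries agreed closely with each other and lay 6.86-fold below DMSO, a log2 fold change of -2.78 ± 0.06 (adjusted p = 4.14e-07). PRIM2 (chromosome 6, 57314805 to 57646849, plus strand), the large primase subunit, had 43.1, 40.8 and 44.9 CPM in DMSO and 7.69, 7.01 and 7.33 CPM in NC. It was 5.84-fold lower, a log2 fold change of -2.55 ± 0.09 (adjusted p = 9.62e-07). Both calls held in every one of the 15 alternative settings, as did those of ORC2 and ORC6.

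Neither of their partners passed the test. POLA2, the accessory subunit of polymerase alpha, had 93.8, 94.7 and 96.2 CPM in DMSO and 85.1, 93.2 and 98.5 CPM in NC. PRIM1, the catalytic primase subunit, had 62.4, 56.1 and 53.4 CPM in DMSO and 56.1, 54.5 and 59.1 CPM in NC. The groups overlapped for both genes, with log2 fold changes of -0.04 ± 0.07 and -0.02 ± 0.08 (adjusted p = 0.653 and 0.873). With scaling on genes under 20 kb they were -0.27 and -0.25 and passed as lower (adjusted p = 0.0120 and 0.0373). In FPKM, POLA1 over POLA2 went from 1.83, 1.91 and 1.85 to 0.306, 0.276 and 0.260. PRIM2 over PRIM1 went from 0.532, 0.561 and 0.648 to 0.106, 0.0992 and 0.0956. The transcript of the polymerase subunit was thus above that of its partner in each DMSO library and below it in each NC library. EEF1B2P3, a pseudogene that overlaps POLA1 by 678 bp on the opposite strand, had 34.1, 29.01 and 31.7 CPM in DMSO and 48.9, 49.6 and 33.6 CPM in NC, and the strand setting of the counting is not given in the sources used here.

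Of the 5 genes for polymerases delta and epsilon, POLD2 rose and the others did not pass. POLD2, an accessory subunit of polymerase delta, had 96.5, 107.6 and 95.0 CPM in DMSO and 137.0, 167.3 and 143.1 CPM in NC. All NC libraries were higher, with a log2 fold change of 0.58 ± 0.09 (adjusted p = 0.00132). POLD1, the catalytic subunit of delta, had 0.01 ± 0.06 (adjusted p = 0.949), which became -0.23 and passed the threshold with scaling on genes under 20 kb (adjusted p = 0.00894). POLE, the catalytic subunit of epsilon, had -0.12 ± 0.07, and its partner POLE2 had -0.16 ± 0.11. They too passed as lower with that scaling, at -0.35 and -0.39 (adjusted p = 0.00300 and 0.0227). POLD3, which links delta to the clamp, had the lowest fold change of this group, with 93.4, 54.0 and 94.0 CPM in DMSO and 70.7, 76.6 and 48.2 CPM in NC. Those libraries overlapped and were widely spread within each group (-0.30 ± 0.24, adjusted p = 0.330).

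Of the sliding clamp and the 5 subunits of its loader, PCNA and RFC5 rose, RFC3 fell and the other 3 did not pass. PCNA (chromosome 20, 5114953 to 5126626), the clamp, had the highest level per length of all 46 genes, with means of 174.6 FPKM in DMSO and 261.6 FPKM in NC. It rose by 0.48 ± 0.13 on the log2 scale (adjusted p = 0.0140), from 367.0, 296.5 and 320.2 to 384.5, 461.1 and 524.8 CPM. The lowest NC library was only slightly above the highest DMSO library, and without DMSO replicate 2 the adjusted p was 0.0517 (lowest 0.00475 as libraries were left out). It was also not called with scaling on genes under 20 kb.

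Replication factor C opens the clamp and is built of 1 large and 4 small subunits. RFC5 rose from 116.0, 118.3 and 119.6 to 183.9, 188.9 and 163.3 CPM, with groups far apart (log2 fold change 0.60 ± 0.07, adjusted p = 2.72e-04). RFC3 fell by 0.22 ± 0.05 (adjusted p = 0.00952), a call lost with library totals alone. RFC1, the large subunit, had 155.4, 148.1 and 144.7 CPM in DMSO and 133.9, 102.3 and 132.3 CPM in NC. Its groups did not overlap, yet it missed the threshold (-0.28 ± 0.11, adjusted p = 0.0581). It passed without NC replicate 1 (adjusted p = 0.0461) or NC replicate 2 (0.0478), while the highest value as libraries were left out was 0.14. It also passed with DESeq2 (adjusted p = 0.0492) and with scaling on genes under 20 kb (-0.51, adjusted p = 0.00890). RFC2 had 0.09 ± 0.10 and RFC4 had 0.15 ± 0.07, and neither passed.

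Of the subunits of replication protein A, which coats single-stranded DNA, RPA1 fell, RPA2 rose and RPA3 did not pass. RPA1, the large DNA-binding subunit, had 302.3, 301.1 and 310.2 CPM in DMSO and 212.0, 245.2 and 230.0 CPM in NC (log2 fold change -0.41 ± 0.07, adjusted p = 0.00155). RPA2, the subunit phosphorylated under replication stress, had 158.6, 151.8 and 161.8 CPM in DMSO and 183.2, 207.8 and 188.5 CPM in NC (0.30 ± 0.07, adjusted p = 0.00801, not called with scaling on genes under 20 kb). Both were separated between groups, in opposite directions. RPA1 over RPA2, in FPKM, went from 0.715, 0.744 and 0.719 to 0.434, 0.443 and 0.458. RPA3 had -0.18 ± 0.14 (adjusted p = 0.304). It shares 77897 bp with UMAD1 on the opposite strand, a gene with a log2 fold change of -3.13.

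Among the enzymes that finish Okazaki fragments, FEN1, the flap nuclease, had 217.7, 210.0 and 204.4 CPM in DMSO and 227.9, 260.1 and 236.7 CPM in NC. Its rise of 0.20 ± 0.07 (adjusted p = 0.0421) turned to -0.04 with scaling on genes under 20 kb and was lost with each single library left out except NC replicate 1 (adjusted p 0.029 to 0.142). FEN1 shares 4265 bp of the same strand with FADS2, which had a log2 fold change of 0.84. LIG1, the ligase, had 79.6, 97.4 and 87.6 CPM in DMSO and 76.3, 81.2 and 93.3 CPM in NC, with overlapping groups (-0.08 ± 0.10, adjusted p = 0.554).

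Of 3 genes of nucleotide supply, RRM1 fell and the others did not pass. RRM1, the large subunit of ribonucleotide reductase, had 356.0, 347.4 and 354.4 CPM in DMSO and 285.2, 293.0 and 299.2 CPM in NC. The groups were apart, with a log2 fold change of -0.27 ± 0.05 (adjusted p = 0.00356). RRM2, the small subunit that is made in S phase, had -0.05 ± 0.06 (adjusted p = 0.510). TYMS, thymidylate synthase, had 134.9, 130.9 and 120.8 CPM in DMSO and 110.3, 134.0 and 131.3 CPM in NC, with overlapping groups and a log2 fold change of -0.04 ± 0.09 (adjusted p = 0.723). With scaling on genes under 20 kb, RRM2 (-0.28) and TYMS (-0.28) passed as lower as well (adjusted p = 0.00203 and 0.0250). RRM1 over RRM2, in FPKM, was 1.96 to 1.98 in DMSO and 1.61 to 1.77 in NC.

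Both fork protection genes rose a little. TIMELESS, which travels with the helicase, had 221.5, 217.4 and 216.5 CPM in DMSO and 245.7, 265.7 and 270.7 CPM in NC (log2 fold change 0.25 ± 0.06, adjusted p = 0.00848, not called with scaling on genes under 20 kb). CLSPN, which encodes the checkpoint mediator claspin, had 108.3, 114.8 and 108.1 CPM in DMSO and 133.6, 116.0 and 147.4 CPM in NC. Its lowest NC library was just above the highest DMSO library. The log2 fold change of 0.26 ± 0.09 (adjusted p = 0.0448) kept its call as libraries were left out only without NC replicate 2 (adjusted p 0.00562 to 0.123).

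The direction of change went along with the genomic span of the gene, its length from start to end with introns. Of the 15 members spanning under 20 kb, 10 rose and 5 did not pass. Of the 17 between 20 and 50 kb, 6 rose, 4 fell and 7 did not pass. Of the 14 at 50 kb or more, 1 rose, 7 fell and 6 did not pass. The 11 genes that fell spanned 36.8 to 332.0 kb, and all of the 17 that rose except GINS3 spanned 4.61 to 49.8 kb. Among called genes, this order also held inside several complexes, though not among the activation genes. There GINS3 (111.1 kb) rose and CDC45 (41.2 kb) and GINS1 (44.9 kb) fell. Genes that did not pass were not ordered so, with ORC3 at 77.4 kb, RPA3 at 82.1 kb and MCM7 at 9.21 kb. ORC1 and ORC6 span 31.6 and 8.75 kb, and the ORC genes that fell span 54.7 to 91.2 kb. The shortest of these, ORC2, fell most. MCM6, at 36.8 kb, is the longest of the MCM2-7 genes. MCM7, MCM4, MCM3 and MCM2, from 9.21 kb up to 24.2 kb, ran the other way, with log2 fold changes of 0.13, 0.28, 0.44 and 0.59. MCM5, at 25.4 kb, had 0.14. RPA2 spans 23.2 kb and RPA1 70.4 kb. POLA2 and PRIM1 span 43.8 and 20.8 kb, against 303.1 kb for POLA1 and 332.0 kb for PRIM2.

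The whole transcriptome moved with span as well, and each class of members is set here beside all tested genes of that class. Under 5 kb, where 23.4% of all tested genes rose and 12.3% fell, the 1 member, FEN1, rose. From 5 to 10 kb, 44% of all rose and 6.69% fell, and 3 of 5 members rose. From 10 to 20 kb, 44.2% rose and 6.3% fell, and 6 of 9 members rose. Short members thus leaned the way of short genes in general. From 20 to 50 kb, 30.8% rose and 12.2% fell, and 6 of 17 members rose and 4 fell. From 50 to 100 kb, 10.5% rose and 39.8% fell, and 4 of 9 members fell. From 100 to 200 kb, 2.65% rose and 75% fell, while of 3 members GINS3 rose, RFC3 fell and POLD3 did not pass. At 200 kb or more, 1.24% rose and 89.3% fell, and both members, POLA1 and PRIM2, fell. The class medians of all tested genes from short to long were 0.09, 0.31, 0.30, 0.13, -0.21, -0.84 and -2.00 on the log2 scale.

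**Figure D3:**
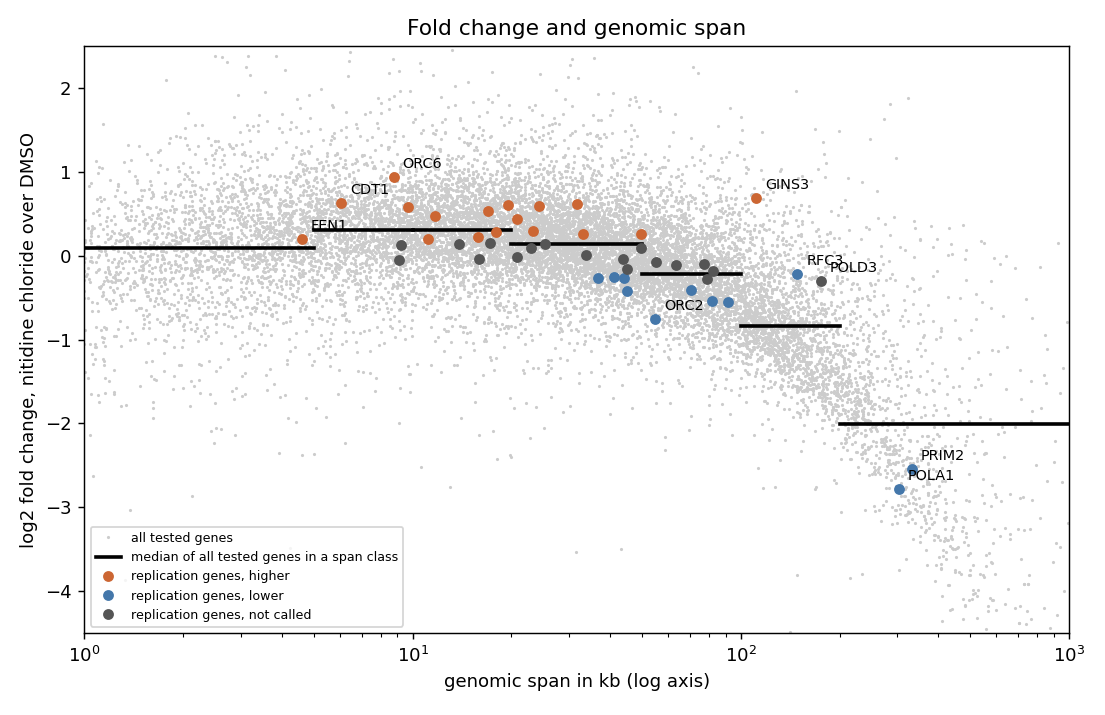
Log2 fold change (NC over DMSO) against genomic span in kb (logarithmic axis), with all tested genes as small grey points, class medians as black bars and the 46 genes coloured by call. A few genes beyond the axes are not drawn. POLA1 (-2.78) and PRIM2 (-2.55) sit at the lower right, and GINS3 (0.69) stands above its class.

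A closer reference is the set of tested genes whose span lay within a factor of 0.8 of that of the member in either direction. For POLA1, the median log2 fold change over 424 such genes was -2.14, and 17.2% lay lower than POLA1 itself. For PRIM2, 381 such genes had a median of -2.31, and 35.7% were lower. The deep falls of these genes were thus not at the edge of what long genes showed. ORC2 was further from its surroundings, with a median of -0.08 over 1827 genes of similar span and 5.86% of them lower. ORC6 was higher than 92.4% of 1176 genes of similar span (median 0.32), ORC1 higher than 86.9% of 1958 (median 0.15) and MCM2 higher than 81.1% of 1828 (median 0.21).

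GINS3, RFC3 and POLD3 stood above the median of genes of similar span by 1.34, 0.72 and 0.84 on the log2 scale. The annotated span of these 3 genes is 8.08, 7.64 and 3.47 times that of their APPRIS principal transcript in GENCODE 29, the widest gaps among the 46 genes. Measured on the principal transcript, they span 13.8, 19.4 and 50.5 kb. By class of that span, GINS3 (0.69) still lay above the median of all tested genes (0.30). RFC3 (-0.22) lay below that same median, and POLD3 (-0.30) was near its own class median (-0.29). Measured so, the called activation genes, the exception by gene span, followed the order too. Those that rose spanned 13.8 to 15.8 kb and those that fell 40.8 to 41.2 kb. MCM10, the longest activation gene by principal transcript (48.2 kb), did not pass, with a log2 fold change of 0.09. On that measure 11 of 17 members under 20 kb rose and 1, RFC3, fell, and of 12 members at 50 kb or more 6 fell and 6 did not pass. Called shares of all tested genes on that measure are not given here. Their class medians on it, from short to long, were 0.28, 0.34, 0.30, 0.13, -0.29, -0.97 and -2.23. Across the 46 genes, log2 fold change and log10 span had a Pearson r of -0.692 and a Spearman rho of -0.668, and -0.789 and -0.761 with the principal transcript. Without POLA1 and PRIM2 the values were -0.583 and -0.62 for the gene (n = 44) and -0.696 and -0.727 for the principal transcript. Across all 15953 tested genes they were -0.445 and -0.47, and -0.621 and -0.63 across the 13231 with a principal transcript, on its span. These are descriptions over genes of the same 6 libraries, and genes are not independent replicates. MCM6, GINS1, RRM1 and CDC45 fell against medians of 0.09, 0.01, 0.02 and 0.05 for genes of similar span, and 17.8%, 13.3%, 22.4% and 21.1% of those genes were lower still.

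A list of 56 further replication genes covered accessory polymerase subunits, firing factors, chromatin assembly, nucleotide metabolism and the checkpoint. Of these, 13 rose, 17 fell and 26 did not pass (median log2 fold change 0.02). The share called was 53.6%, near the 51.7% of all tested genes, low counts included. With scaling on genes under 20 kb, 3 were higher and 27 lower, so most of these rises were not called there. LRWD1, an ORC-binding protein, had the highest fold change, with 101.6, 89.5 and 91.0 CPM in DMSO and 141.5, 175.0 and 163.4 CPM in NC. All 3 NC libraries were higher (0.77 ± 0.09, adjusted p = 3.36e-04). POLE3, an accessory subunit of polymerase epsilon, rose by 0.54 ± 0.07, RRM2B, the p53-induced reductase subunit, by 0.44 ± 0.10, CHAF1B, a chromatin assembly factor subunit, by 0.41 ± 0.07, and DUT, the dUTPase, by 0.40 ± 0.11. CDC7, the kinase that fires origins, rose by 0.32 ± 0.07, and its activator DBF4 had 0.02 ± 0.09.

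The lowest fold change of these 56 genes was that of ATR, the replication stress kinase (129.6 kb), with 95.3, 102.0 and 98.2 CPM in DMSO and 44.8, 39.6 and 47.8 CPM in NC. The groups were far apart (-1.16 ± 0.08, adjusted p = 1.98e-05). TOP1, topoisomerase I (95.7 kb), fell by 1.03 ± 0.07 on the log2 scale. CUL4B, the scaffold of an E3 ligase family that degrades CDT1 (51.2 kb), fell by 0.81 ± 0.07, and MCM9, a helicase paralogue used in repair (121.7 kb), by 0.79 ± 0.08. WEE1, the kinase that holds back CDK activity (19.8 kb), fell by 0.67 ± 0.12 (adjusted p = 0.00222). By span, 12 of 19 genes from 50 to 100 kb fell and 1 rose, where 39.8% of all tested genes fell and 10.5% rose. Both genes from 100 to 200 kb fell, as did 75% of all in that class. From 20 to 50 kb, 5 of 15 rose and 2 fell (30.8% and 12.2% of all). From 10 to 20 kb, 4 of 12 rose and 1 fell (44.2% and 6.3% of all). From 5 to 10 kb, 2 of 7 rose (44% of all), and the 1 gene under 5 kb rose.

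**Figure D4:**
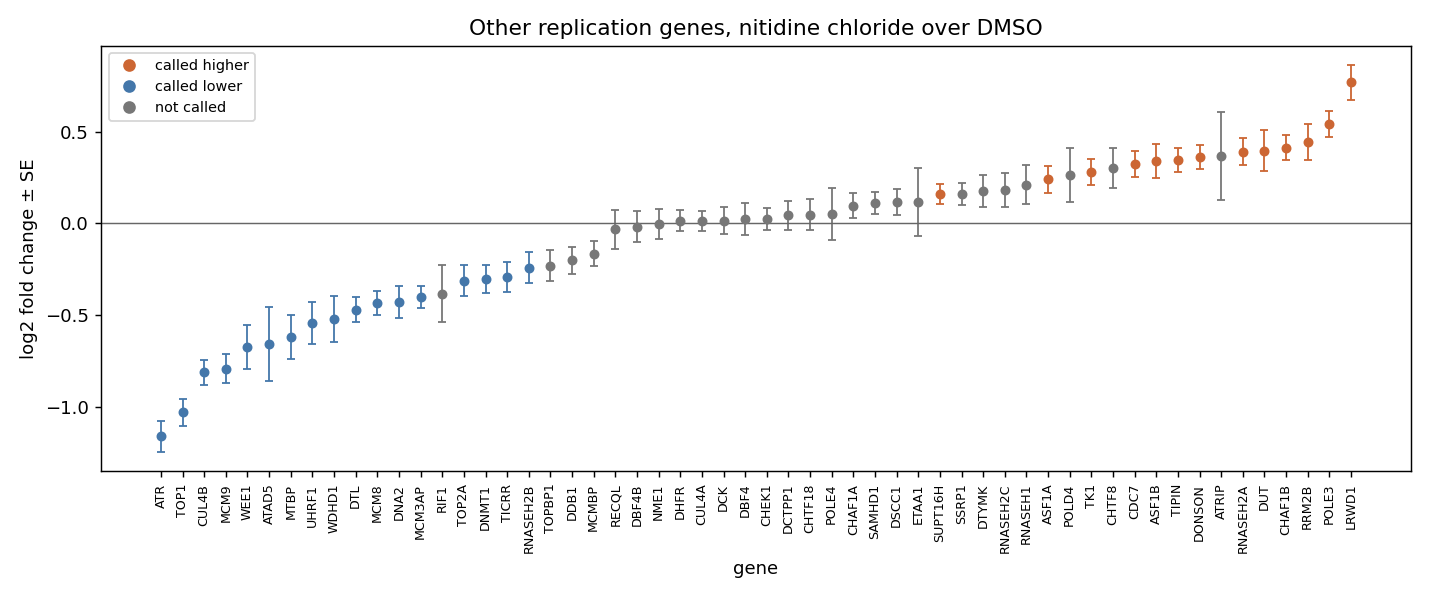
Log2 fold change with its standard error for the further replication genes, ordered from lowest to highest along the horizontal axis and coloured by call. ATR is at the left end at -1.16 and LRWD1 at the right end at 0.77.

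Reads of some members can be shared with a neighbour. Another gene with a mean of at least 10 counts overlapped 15 of the 46, on the same strand for PRIM1, POLD3, RFC3 and FEN1. Of the 31 without such an overlap, 13 rose and 7 fell, and ORC1, ORC2, ORC6, CDC6, CDT1, MCM6 and PRIM2 were among them. Entries of the table named as pseudogenes of the 46 had mean counts of at most 5.33.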

How the data were processed

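RNA of 3 DMSO and 3 nitidine chloride libraries of HEK-293T was measured by mRNA sequencing, per the labels' protocols. Per the file headers, the authors deposited a count of reads and an FPKM value, scaled to gene length and library total, for each gene and library. The submitters' processing notes name HISAT2 2.0.4 and StringTie 1.3.0 without saying what each did. As for counter, strand setting and build, these were not given in the sources used here. Positions were those of GENCODE release 29 (GRCh38) for 47523 of 50111 shared identifiers.

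Counts were scaled by TMM, the 15953 genes with a mean count of 10 or more were kept, and groups were compared with the quasi-likelihood test of edgeR 4.0.16 under R 4.3.3, with no covariate and a Benjamini-Hochberg adjusted threshold of 0.05 over all genes. The standard error is the log2 fold change divided by the square root of the F statistic. The test was tested on simulated data. FPKM served only for levels between genes and ratios, with no test. Because FPKM follows library totals, its ratios of NC over DMSO lie above the TMM ones, so rises are larger and falls smaller. Overlaps were found with GenomicRanges 1.54.1, and matplotlib 3.10.9 drew the plots.

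The members and lists were chosen with earlier results of these data known. In each complex the genes with the highest and lowest fold change, or with a 2-fold change, were given in every library, and up to 5 genes per direction of the further list. CDC7, DBF4 and some members given in every library lie outside this rule and were picked once their values were known. Alternatives tried were leaving out each library, a replicate block, other filters (none, or a mean count of 50), DESeq2 1.42.0, limma-voom (limma 3.58.1), library totals alone, TMM from genes under 20 kb, an adjusted p of 0.01 and a test against a 1.5-fold change. Leaving out overlapped members was added after seeing the data, as were the comparison with genes of similar span and the levels on GENCODE exon lengths. An alternative on FPKM was not run because counts were given.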

Additional observations from a re-analysis of the deposited data

How the results depend on the processing

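With TMM from genes under 20 kb, 8 members were higher and 22 lower, as were 2062 and 6220 of all tested genes and 3 and 27 of the further replication genes. GMNN (-0.0352), GINS4 (-0.0058), POLD1 (-0.229) and FEN1 (-0.0374) changed sign there. The share of calls that were higher, over all genes, was 24.9%, against 47.7% with TMM on all genes and 57.9% with library totals alone, where 21 of the further genes were higher. At an adjusted p of 0.01, 2616 genes were higher over all and 8 of the further list. Against a 1.5-fold change, 1 member was higher and 3 lower, 750 and 2083 over all, and 0 and 4 of the further list. Without the overlapped members, 7 were lower, with fewer genes counted.

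As single libraries were left out, 12 to 15 members were higher and 10 to 12 lower. DESeq2 gave 16 and 12, limma-voom 16 and 11. Of the 28 changed members, 17 kept their call in all 13 settings other than the stricter thresholds. Replicate numbers did not pair the libraries (same-number correlations of deviations 0, -0.05 and 0.04, and not every library correlated best with its own number). With a replicate block, 13 members were higher and 11 lower, without GMNN, GINS4, FEN1 and CLSPN, and 3492 and 4063 genes over all.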
